A study of Mus musculus with 12 samples.

Results

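The potassium channel subunits were the protein-coding genes whose GENCODE vM21 name begins with Kcn, continues with letters and ends in a number. Of 55536 genes counted, 92 carried such a name. Kcne2 and Kcnj13, a pair of choroid plexus genes, were left out, so the set held 90 members. The bulk RNA-seq came from 1-month-old mice on a C57BL/6J background, either wild type (WT) or homozygous for a full-body frameshift deletion of Snx14 (Snx14-KO). Snx14 encodes a sorting nexin of the endoplasmic reticulum that is linked to lipid droplets, and its loss in humans causes a recessive cerebellar ataxia. Cerebellum and cerebral cortex were taken from 3 mice of each genotype, which gave 12 libraries in 4 groups of 3. Every cell of the body carried the deletion, and the tissues were lysed whole.

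Potassium channels let potassium ions leave or enter the cell along their gradient and so set the resting potential, the width of the action potential and the firing rate. Most are tetramers of pore subunits, some of which join only as silent partners of others, and auxiliary subunits alter their gating and their transport to the membrane. In the cerebellum, fast-closing Kv3 channels allow Purkinje cells and granule cells to fire at high rates, while in cortex Kv2, Kv7 and Kv12 channels restrain the firing of principal neurons. By gene name the 90 members fell into 8 classes. The pore subunits Kv1 to Kv4 counted 17 members, the silent Kv subunits 10, Kv7 5 and the EAG, ERG and ELK channels 8. The calcium- or sodium-activated channels counted 8, the inward rectifiers 14, the 2-pore-domain channels 14 and the auxiliary subunits 14.

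What the pore subunits share beyond their names is the selectivity filter, the short loop that strips water from potassium ions. The signature searched for was threonine, then valine, isoleucine or leucine, then glycine, tyrosine or phenylalanine, and glycine. This signature was found in frame in the longest coding sequence of 63 of the 90 members, against 102 of 21782 protein-coding genes (0.468%). It was present in 17 of 17 Kv1 to Kv4 subunits, 10 of 10 silent Kv subunits, 5 of 5 Kv7 subunits, 13 of 14 inward rectifiers and 12 of 14 2-pore-domain channels, 11 of which held 2 copies. It was found in 5 of 8 calcium- or sodium-activated channels, in 1 of 8 EAG, ERG and ELK channels and in 0 of 14 auxiliary subunits. Filters with other residues at these places were not searched for, so a pore subunit without a match may still have a filter. The stretch of the coding exon around it is shown for 3 pairs of paralogs, because in each pair the gene named before its partner was higher in WT cerebellum and the other in WT cortex, as the levels given later show. Sequences are 30 bases of the GENCODE vM21 coding strand on GRCm38, read 5′ to 3′, and capitals mark the 15 bases of the signature. For the 2-pore-domain genes the copy nearer the 3′ end is printed.
Kcng4 (Kv6.4, exon 3, chr8:119625904-119625933, minus strand): tccatgacgACCGTGGGCTATGGGgacatg
Kcng1 (Kv6.1, exon 2, chr2:168262635-168262664, minus strand): accatgacaACCGTAGGCTACGGAgacatg
Kcnt1 (Slack, exon 11, chr2:25894358-25894387, plus strand): actttctcaACTGTGGGCTTCGGTgatgtg
Kcnt2 (Slick, exon 9, chr1:140425269-140425298, plus strand): acattttctACTGTGGGCTTTGGGgatgtc
Kcnk10 (TREK-2, exon 5, chr12:98440599-98440628, minus strand): acgctgaccACAGTAGGCTTTGGTgatttt
Kcnk2 (TREK-1, exon 5, chr1:189256575-189256604, minus strand): actctgacgACCATTGGATTTGGAgactac
Within a pair the signature held 12 of 15 identical bases for Kcng4 and Kcng1, 13 of 15 for Kcnt1 and Kcnt2, and 10 of 15 for Kcnk10 and Kcnk2.

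The libraries held between 16672589 and 19887427 read pairs in genes, of which the members took from 0.492% to 0.603%. Levels are given as CPM (counts relative to the library total), scaled with TMM factors over the 12 libraries, or, where genes are compared with each other, as TPM, which also divides by exon length. The targeted gene followed its labels. Snx14 lay at 63.8, 63.8 and 66.4 CPM in WT cerebellum and at 10.4, 10.9 and 11.2 CPM in Snx14-KO cerebellum. In cortex the WT values were 53.5, 55.1 and 59.9 CPM and the Snx14-KO values 8.47, 7.97 and 7.65 CPM.

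The cerebellum libraries of Snx14-KO mice 1 and 3 stood apart from the other 4 cerebellum libraries. They were high in genes known as markers of midbrain and thalamus: the summed level of 10 marker genes of these regions was 211 and 216 CPM there, against 33.9 CPM in Snx14-KO mouse 2 and 37.1 to 42.4 CPM in the WT mice. In mice 1 and 3, 9 of the 10 markers lay above all WT cerebellum libraries, Lef1 being the exception, and none of these 9 did so in mouse 2. Tcf7l2, a transcription factor of thalamus and dorsal midbrain, reached 62.5 and 64.1 CPM against 4.68 to 8.10 CPM in WT. Shox2 reached 16.8 and 13.3 CPM against 0.0556 to 0.116 CPM. Of the forebrain lists, 5 telencephalon markers summed to 3.30 to 4.08 CPM in Snx14-KO and 2.95 to 5.16 CPM in WT cerebellum, with no marker above the WT range in both mice. The 4 striatal markers summed to 10.1 and 10.6 CPM in mice 1 and 3, 2.87 CPM in mouse 2 and 2.18 to 4.17 CPM in WT, with 2 of 4 above the WT range in both mice. One of these was Drd2, a dopamine receptor, at 6.26 and 6.22 CPM against 0.372 to 1.11 CPM in WT. The marker genes were picked after these libraries had been looked at. Values without mice 1 and 3 are therefore given for many of the results on Snx14-KO cerebellum, though not for all, and these rest on mouse 2 alone. Such a fit takes its spread from the other groups and assumes that the lone library varies like them, so its SE and p say little, and a count of 0 from it does not show stability. In whole tissue, fewer cells of a type and less RNA per cell cannot be told apart.

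Other cell type markers also differed between the cerebellum groups. The sum of 7 meningeal fibroblast markers was 203 to 215 CPM in Snx14-KO and 94.0 to 143 CPM in WT, with 6 of 7 genes above the WT range in all 3 Snx14-KO libraries. The 7 markers of astrocytes and Bergmann glia summed to 5163 to 6211 CPM against 4488 to 5134 CPM, and the 5 mural cell markers summed to 192 to 208 CPM against 134 to 175 CPM. All 3 Snx14-KO libraries lay above the WT range for 4 of the 7 astrocyte genes and for 1 of the 5 mural genes. Within the astrocyte list Gfap, a filament protein that rises in reactive astrocytes, was at 373, 442 and 912 CPM in Snx14-KO against 276 to 310 CPM in WT. Purkinje cell markers (5 genes) summed to 6447 to 8386 CPM against 8330 to 9263 CPM, lowest in Snx14-KO mouse 3, and granule cell markers (5 genes) to 1869 to 2431 CPM against 2224 to 2651 CPM. In each of these lists just 1 of 5 genes lay below the WT range in all 3 Snx14-KO libraries. The microglial sum (6 genes) was 204 CPM in Snx14-KO mouse 3 and 88.7 to 108 CPM in the other 5 cerebellum libraries. The 5 inhibitory neuron markers summed to 1764 to 2115 CPM against 2038 to 2121 CPM, but Sst and Vip, peptides of cortical interneurons among other cells, lay above the WT range in all 3 Snx14-KO mice. Sst was at 34.3, 3.20 and 35.7 CPM in Snx14-KO against 2.22 to 2.72 CPM in WT, and Vip at 3.01, 0.441 and 3.03 CPM against 0.0579 to 0.160 CPM. The choroid plexus sum (7 genes) ran from 81.8 to 7327 CPM among the WT mice and from 965 to 3197 CPM among the Snx14-KO mice. None of these markers was at 0 in a group. In cortex, Snx14-KO mouse 2 had a meningeal sum of 172 CPM against 43.1 to 69.3 CPM in the other 5 libraries. Its Gfap level was 1050 CPM against 147 to 261 CPM, and its oligodendrocyte sum (6 genes) 5364 CPM against 6927 to 7783 CPM. In cortex, WT mouse 2 had a striatal sum (4 genes) of 218 CPM against 84.4 to 98.4 CPM. The part of these differences in the results on channels was not tested.

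At the level of summed TPM, the 90 members together were close in both regions of WT mice, at 3077 ± 77.1 TPM in cerebellum and 3327 ± 60.04 TPM in cortex (mean ± SD, n = 3 mice). The mix of classes was not. Kv1 to Kv4 subunits summed to 1058 ± 31.5 TPM in cerebellum and 670 ± 31.1 TPM in cortex, and the 2-pore-domain channels to 428 ± 27.5 and 312 ± 6.14 TPM. The order was the other way round for EAG, ERG and ELK channels, at 58.4 ± 6.08 TPM in cerebellum and 224 ± 4.06 TPM in cortex, and for Kv7, at 47.4 ± 2.23 and 175 ± 4.06 TPM. Inward rectifiers summed to 495 ± 13.02 and 704 ± 25.8 TPM, and auxiliary subunits to 580 ± 13.5 and 786 ± 10.4 TPM. In each of these classes the 3 cerebellum libraries did not overlap the 3 cortex libraries.

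A few members made up much of each total. Among the highest in WT cerebellum were Kcnk1 (TWIK-1, a weakly conducting leak channel) at 275 ± 21.0 TPM, Kcng4 (a silent subunit that pairs with Kv2) at 250 ± 14.9 TPM and Kcnj10 (Kir4.1, the main potassium buffer of astrocytes) at 209 ± 20.005 TPM. The ranges of Kcnk1 and Kcng4 overlapped, and that of Kcnj10 lay below both. In WT cortex the highest were Kcnab2, the Kvβ2 subunit of Kv1 channels, at 273 ± 3.53 TPM, Kcnj4 (Kir2.3) at 203 ± 2.41 TPM, Kcnk1 at 167 ± 4.20 TPM, Kcnj10 at 141 ± 15.03 TPM and Kcnj9 (Kir3.3) at 138 ± 6.55 TPM. Each of the leading 3 in cortex lay clear of the next, while Kcnj10 and Kcnj9 overlapped.

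**Figure D1:**
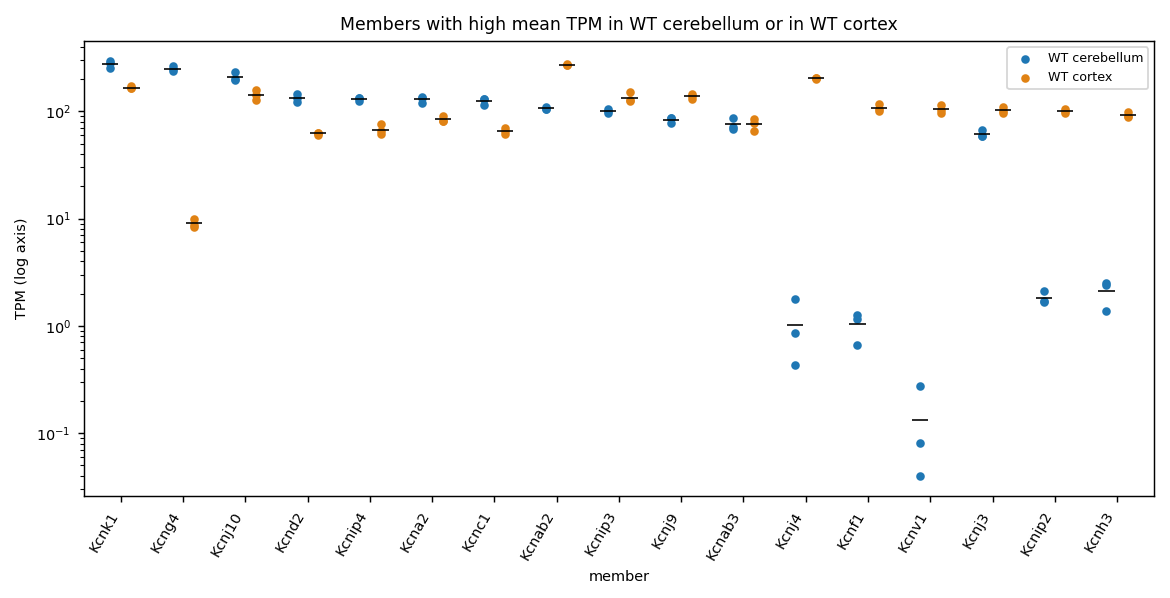
TPM (log axis) of 17 members with high mean levels in WT cerebellum or WT cortex; points are the 3 mice and lines their means. Kcng4 is far higher in cerebellum, Kcnj4, Kcnf1, Kcnv1, Kcnip2 and Kcnh3 are near or below 2 TPM there, and Kcnab3 is alike in both.

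The question of where the members differ by region was asked within WT mice with edgeR's quasi-likelihood test on all 18543 genes that passed the filter on low counts. A gene was called when its adjusted p was below 0.05 and its log2 fold change beyond 0.5 in either direction. Of 75 members tested, 20 were higher in cerebellum and 43 lower. Over all genes, 40.4% were called, 19% higher and 21.4% lower. The median log2 fold change of the members was -0.81, against 0.02 over all genes tested. The libraries of the regions did not overlap for 69 of the 75 members (92.0%), against 64.2% of all genes.

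Among the Kv1 to Kv4 subunits, 6 of 15 tested were higher in cerebellum and 8 lower. Kcnc2 (Kv3.2, typical of fast-firing cortical interneurons) was at 6.50, 7.75 and 6.92 CPM in the cerebellum of WT mice 1, 2 and 3 and at 144, 148 and 145 CPM in their cortex, 20.5-fold lower (adjusted p = 7.1e-11). Kcnd2, the Kv4.2 subunit of A-type current, was 2.07-fold higher in cerebellum.

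The silent Kv subunits, which form no channel alone and modify Kv2, were the class with the widest spread, with 2 of 10 higher and 8 lower in cerebellum. Kcng4 was at 287, 280 and 293 CPM in cerebellum and 9.88, 10.7 and 12.1 CPM in cortex, 26.5-fold higher (log2 fold change 4.73, SE 0.09, adjusted p = 7.0e-11). Kcnv2, whose loss impairs cone vision in humans, was low in both, with 52 read pairs over the 3 cerebellum libraries and 3 over the 3 cortex libraries, a ratio of 17.6 with an exact 95% counting interval from 5.71 to 88.2. The counting interval covers counting error only.
On the cortical side, Kcnv1 was at 0.389, 0.116 and 0.0532 CPM in cerebellum and 136, 169 and 153 CPM in cortex (log2 fold change -9.63, SE 0.23). Kcng1 was at 0.167, 0 and 0.266 CPM against 29.5, 25.9 and 24.3 CPM, and Kcnf1, at 107-fold lower, had the highest mean TPM of the class in cortex (107 ± 8.14 TPM), overlapping Kcnv1 (105 ± 9.50 TPM). Kcng3 had 0 read pairs in all 3 cerebellum libraries and 77 over the 3 in cortex, so it was at least 25.2-fold higher in cortex when the cerebellum is set to a floor of 3 read pairs over the group.

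**Figure D2:**
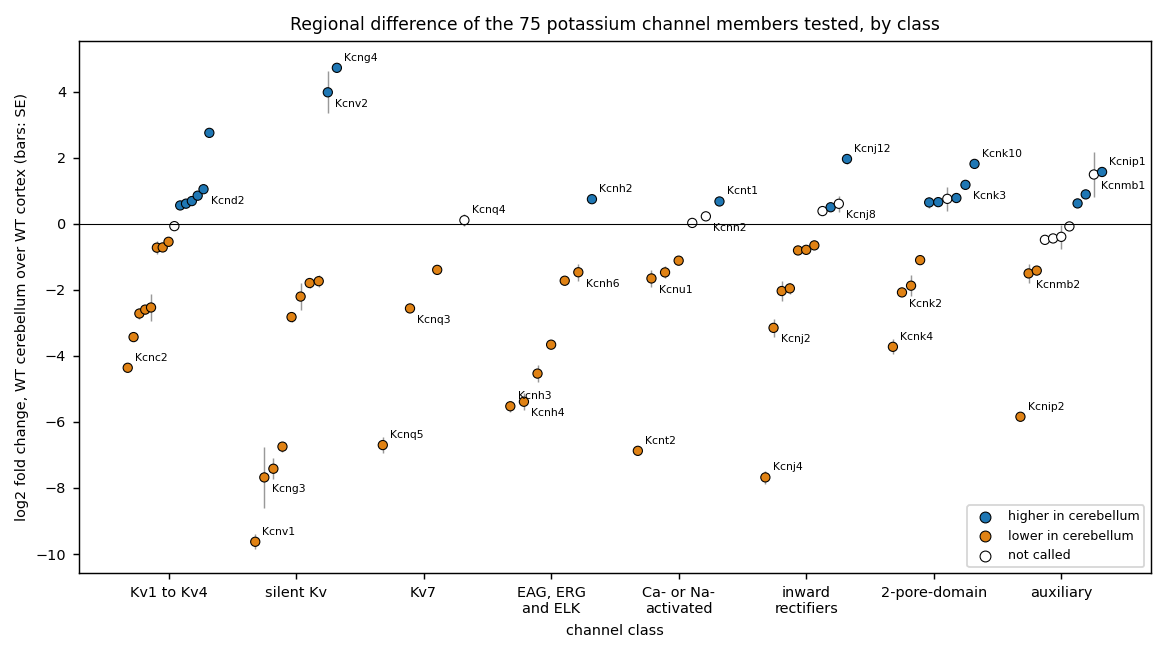
Log2 fold change of WT cerebellum over WT cortex for the 75 members tested, by channel class, with SE bars (n = 3 mice a region). Blue points were called higher in cerebellum (20), orange points lower (43) and white points were not called; the EAG, ERG and ELK, Kv7 and silent classes lie mostly below 0.

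The Kv7 channels carry the M-current that muscarinic receptors close. Of 4 Kv7 genes tested, 3 were lower in cerebellum and 0 higher. Kcnq5 was at 1.83, 0.521 and 0.692 CPM in cerebellum and 93.4, 114 and 114 CPM in cortex, 104-fold lower (adjusted p = 4.0e-09). Kcnq3 was 5.90-fold lower, at 35.5 to 42.8 CPM against 221 to 229 CPM.

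Of the EAG, ERG and ELK channels, 6 of 7 tested were lower in cerebellum. Kcnh3 and Kcnh4, subunits of Kv12 channels found mainly in forebrain neurons, were 46.0-fold and 41.9-fold lower. Kcnh3 measured 4.45, 4.28 and 2.29 CPM in cerebellum against 160, 182 and 166 CPM in cortex. Kcnh2, the ERG1 channel of heart repolarisation, was the exception, at 51.0, 50.9 and 58.0 CPM in cerebellum against 29.8, 33.8 and 32.2 CPM in cortex (1.68-fold higher, adjusted p = 3.1e-05).

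Of the calcium- or sodium-activated channels, 1 of 7 tested was higher in cerebellum and 4 lower. The paralogs of the sodium-activated pair parted by region. Kcnt1 was at 151, 124 and 149 CPM in cerebellum against 86.8, 91.5 and 88.3 CPM in cortex, 1.60-fold higher. Kcnt2 was at 0.333, 0.463 and 0.426 CPM, 6 to 8 read pairs a library, against 49.1, 48.5 and 48.9 CPM, 117-fold lower (log2 fold change -6.87, SE 0.14, adjusted p = 1.2e-10). Kcnu1, known from sperm, was 3.15-fold lower at under 4 CPM in all WT libraries. Kcnma1, the BK channel, was at 298 to 350 CPM in cerebellum and 305 to 328 CPM in cortex and was not called.

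Inward rectifiers were called higher in cerebellum for 2 of 11 tested and lower for 7. Kcnj12 (Kir2.2) was at 60.6, 51.1 and 39.1 CPM in cerebellum against 11.9, 12.7 and 14.2 CPM in cortex, 3.91-fold higher (adjusted p = 1.1e-06). Kcnj4 (Kir2.3) was at 1.17, 0.289 and 0.532 CPM against 133, 142 and 141 CPM, 205-fold lower (adjusted p = 4.0e-10), and Kcnj2 (Kir2.1) was 8.88-fold lower. The strong Kir2 rectifiers were therefore split between the regions at the level of RNA. Kcnj10 was at 334, 327 and 363 CPM in cerebellum against 261, 220 and 246 CPM in cortex. Its log2 fold change of 0.50 (adjusted p = 0.00031) was at the size threshold and fell under it with DESeq2, with another scaling and without the filter.

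The 2-pore-domain channels, which carry background leak current, had 5 of 10 tested higher in cerebellum and 4 lower, with a class median of 0.65. Kcnk10 (TREK-2) was at 28.2, 32.3 and 32.2 CPM in cerebellum against 9.62, 7.58 and 9.28 CPM in cortex, 3.52-fold higher. Kcnk3 (TASK-1, an acid-sensitive leak channel) was 2.27-fold higher, at 64.3 to 82.3 CPM against 30.9 to 34.1 CPM. Kcnk2 (TREK-1), the close relative of Kcnk10, was at 14.2, 14.2 and 16.2 CPM in cerebellum against 62.8, 65.0 and 61.5 CPM, 4.22-fold lower. Kcnk4 (TRAAK) was 13.2-fold lower. It shares 13.1% of its exon bases with Catsperz on the same strand, and Kcnk2 shares 12.2% with another gene.

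Of 11 auxiliary subunits tested, 3 were higher in cerebellum and 3 lower. Kcnip1 (KChIP1, a calcium-binding partner of Kv4) was at 71.5, 79.8 and 58.6 CPM against 23.1, 25.8 and 22.04 CPM, 2.97-fold higher, and Kcnip4 was 1.86-fold higher. Kcnip2 (KChIP2) was at 2.28, 1.79 and 1.70 CPM against 109, 117 and 109 CPM, 57.4-fold lower (adjusted p = 7.0e-11). Kcnab1 (Kvβ1, which speeds inactivation of Kv1 channels) was at 174, 202 and 156 CPM against 106, 131 and 110 CPM, 1.54-fold higher. Kcnab2 was 2.67-fold lower and Kcnmb2, a BK channel β subunit, 2.83-fold lower.

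The same regional contrast in the 6 Snx14-KO libraries, none of which entered the WT test, called 16 of 75 members higher in cerebellum and 40 lower. Over all 18542 genes tested, 37.9% were called, 18.2% higher and 19.6% lower. Of these 56 members, 53 had been called in the same direction in WT mice, which is 94.6% of the Snx14-KO list and 84.1% of the 63 on the WT list, and 0 were called in opposite directions. The Snx14-KO libraries of the regions did not overlap for 68 of the 75 members (90.7%), against 60.6% of all genes. Kcng4 was at 248, 255 and 144 CPM in Snx14-KO cerebellum against 12.5, 10.4 and 10.5 CPM in cortex (log2 fold change 4.28, SE 0.22). Kcnv1 was at 0.669, 0.331 and 0.812 CPM against 143, 144 and 155 CPM. Kcnc2, Kcnip2 and Kcnt2 were high in the cerebellum of mice 1 and 3, though lower than in cortex. The gap had to widen on leaving out those libraries, so its size alone is given. Without them the log2 fold change of Kcnc2 went from -2.45 to -4.62, that of Kcnip2 from -3.44 to -4.96 and that of Kcnt2 from -4.75 to -5.48, and 57 of 76 members tested were called, against 33.9% of all genes.

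The effect of Snx14 loss was asked within each tissue. In cerebellum, 71 members were tested and 0 were called by edgeR at the thresholds above, as was 0.00549% of all 18201 genes, namely Snx14 alone. At an unadjusted p under 0.05 there were 17 members (13 higher in Snx14-KO and 4 lower) against 8.15% of all genes. That count depended on single libraries. Without Snx14-KO mouse 3 it was 10 of 71 (6 higher, 4 lower), against 911 of 18560 genes. Without Snx14-KO mouse 2 it was 30 of 73 (19 higher, 11 lower), against 2004 of 18649 genes. The median log2 fold change over the members was 0.07, against -0.00 over all genes tested. The groups did not overlap for 14 members (19.7%), of which 8 lay above WT and 6 below, against 12.4% of all genes, 6.36% higher and 6.01% lower. DESeq2 on the same counts called 3 members, Kcnip2, Kcnt2 and Kcnj2, each higher in Snx14-KO, and 0.901% of all genes. Without the filter on low counts, edgeR called 6 members and 1.1% of all genes.

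Of the 8 members with the smallest p in cerebellum, 5 lay above the WT range in all 3 Snx14-KO mice, Kcnk10 and Kcnk3 lay below it in all 3, and Kcnc2 lay above it in mice 1 and 3 alone. The 8 were picked by p from these same libraries, which favours groups that do not overlap, so that count adds no support. Kcnip2 was at 2.28, 1.79 and 1.70 CPM in WT and 13.96, 3.09 and 9.20 CPM in Snx14-KO mice 1, 2 and 3 (log2 fold change 2.20, SE 0.47, adjusted p = 0.20 by edgeR and 8.1e-05 by DESeq2). Kcnc2 was at 6.50, 7.75 and 6.92 CPM in WT and 34.1, 5.57 and 34.9 CPM in Snx14-KO (log2 fold change 1.83, SE 0.54, adjusted p = 0.37 by edgeR). Kcnip2 was above the WT range in every Snx14-KO mouse and least so in mouse 2. Kcnc2 was high in the mice with midbrain and thalamus markers, in which Sst was high too, and below the WT range in mouse 2. Without mice 1 and 3 its log2 fold change was -0.34 and that of Kcnip2 0.69, with 0 members called of 74 tested, 0.00521% of all genes called and a member median of -0.00.

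**Figure D3:**
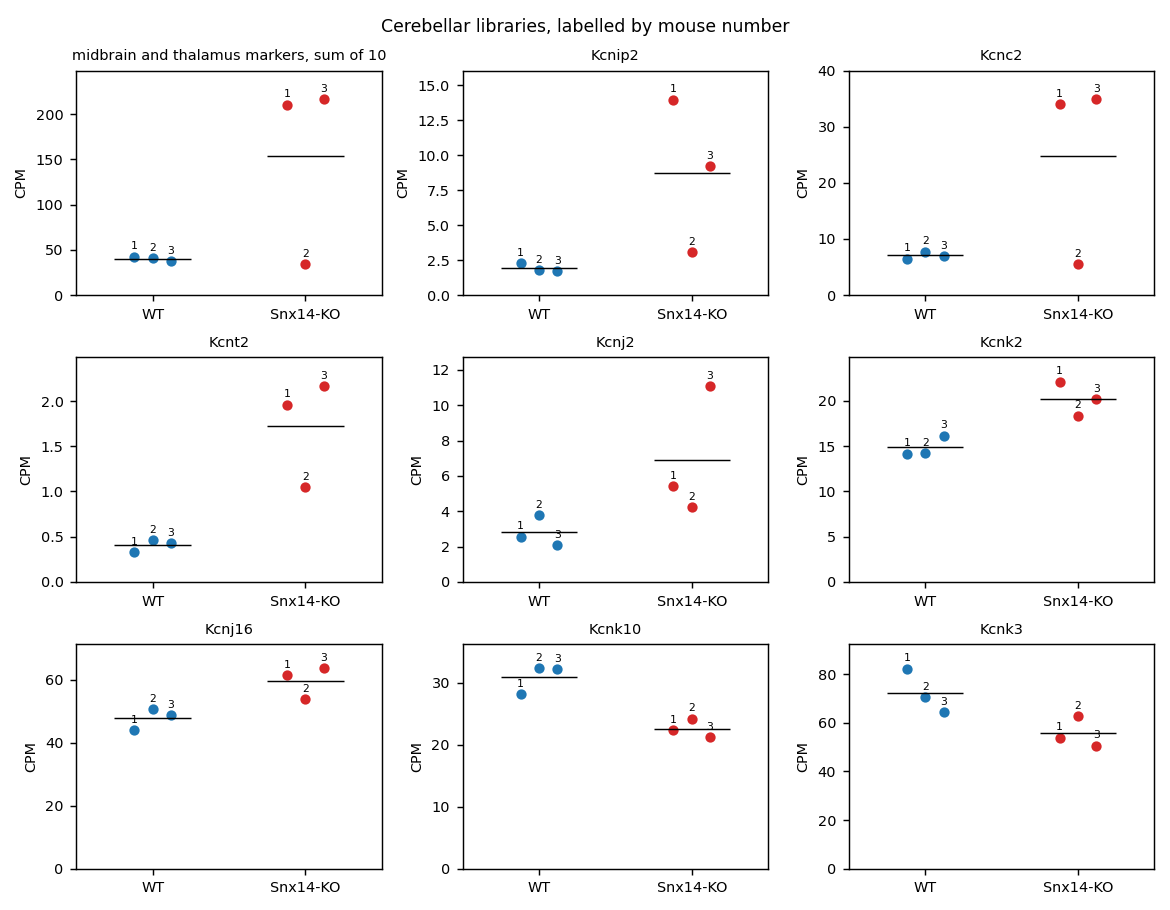
CPM in the 6 cerebellum libraries, labelled by mouse number within genotype, of the summed midbrain and thalamus markers and of the 8 members with the smallest p between genotypes; lines are means of 3 mice. Kcnc2 is high in Snx14-KO mice 1 and 3 alone, as the marker sum is, Kcnip2 is above WT in all 3 and highest in mice 1 and 3, and Kcnk10 and Kcnk3 are lower in all 3 Snx14-KO mice.

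Mice 1 and 3 were also compared with WT over all members. Of the 71 members tested, 22 (31.0%) lay above every WT library in both mice 1 and 3, against 13.6% of all genes, and 10 (14.1%) below, against 12.3%. In mouse 2, 8 of the 22 were above the WT range, 8 within it and 6 below it. Of all 71 members, 14 were above the WT range in mouse 2, 37 within it and 20 below it. Kcnh7, an ERG channel, was for example at 13.7 to 15.5 CPM in WT and 23.2, 13.95 and 25.3 CPM in Snx14-KO, and its log2 fold change went from 0.53 to -0.052 without mice 1 and 3. When mouse 2 was left out instead, 5 members were called, Kcnc2, Kcnip2, Kcnh5, Kcnh7 and Kcnt2, and 1.36% of all genes. The part of the midbrain and thalamus markers in these values was not tested for any single gene.

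Kcnt2, Kcnk2, Kcnj16 and Kcnj2 were, like Kcnip2, above the WT range in all 3 Snx14-KO mice. Kcnt2 was at 0.333, 0.463 and 0.426 CPM in WT cerebellum and 1.96, 1.05 and 2.16 CPM in Snx14-KO (log2 fold change 2.08, SE 0.40, adjusted p = 0.18 by edgeR and 0.034 by DESeq2). The value in mouse 2 rests on 19 read pairs, and its cerebellar level stayed far under the 43.8 to 52.0 CPM of the cortex. Without mice 1 and 3 the log2 fold change, from the lone library of mouse 2, was 1.35. Kcnk2 was at 14.2, 14.2 and 16.2 CPM in WT and 22.1, 18.4 and 20.2 CPM in Snx14-KO (log2 fold change 0.46, SE 0.12, adjusted p = 0.31). Kcnj16 (Kir5.1, the partner of Kir4.1 in glia) was at 44.2, 50.8 and 48.8 CPM against 61.5, 53.8 and 63.8 CPM, with a log2 fold change of 0.33 (SE 0.09, adjusted p = 0.34). Kcnj2 was at 2.56, 3.76 and 2.08 CPM against 5.40, 4.25 and 11.1 CPM (log2 fold change 1.32, SE 0.38, adjusted p = 0.36 by edgeR and 0.035 by DESeq2). Without mice 1 and 3 the log2 fold changes were 0.31 for Kcnk2, 0.17 for Kcnj16 and 0.61 for Kcnj2. Mouse 3 had by far the highest Kcnj2 value, and it was also the mouse with the high microglial sum. In mouse 1, Kcnj2 lay above the WT range while the microglial sum lay within it. A link between them was not tested.

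Kcnk10 and Kcnk3 were below the WT range in all 3 Snx14-KO mice. Kcnk10 was at 28.2, 32.3 and 32.2 CPM in WT and 22.3, 24.2 and 21.3 CPM in Snx14-KO (log2 fold change -0.44, SE 0.10, adjusted p = 0.21). Without mice 1 and 3 the value was -0.35. Kcnk3 was at 82.3, 70.7 and 64.3 CPM in WT against 53.9, 62.9 and 50.6 CPM (log2 fold change -0.36, SE 0.10, adjusted p = 0.36). Without mice 1 and 3 it was -0.20. Both are among the members higher in WT cerebellum than in cortex. Kcng4, the silent subunit with the highest cerebellar level, was at 248, 255 and 144 CPM in Snx14-KO against 280 to 293 CPM in WT (log2 fold change -0.40, SE 0.18, adjusted p = 0.60, and -0.17 without mice 1 and 3). Its lowest value was that of mouse 3, which also had the lowest Purkinje cell sum, and a link between them was not tested.

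In cortex, 74 members were tested and 0 were called, by edgeR, by DESeq2 or under any other setting tried. Over all 18255 genes, 0.00548% were called by edgeR, again Snx14 alone, and 0.0493% by DESeq2. The median over the members was -0.04 (over all genes 0.00). An unadjusted p under 0.05 was found for 2 members, against 4.5% of all genes. This became 5 of 75 without Snx14-KO mouse 2, against 826 of 18581 genes. It became 1 of 75 without Snx14-KO mouse 3, against 1182 of 18676 genes. The groups did not overlap for 6 members (8.11%), 2 higher and 4 lower, against 9.32% of all genes, 4.29% higher and 5.02% lower.

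Kcnab1 had the smallest p in cortex. It was at 106, 131 and 110 CPM in WT and 86.5, 86.0 and 88.2 CPM in Snx14-KO, so the groups did not overlap and the 3 Snx14-KO mice lay close together. The log2 fold change was -0.41 (SE 0.08, unadjusted p = 0.00035, adjusted p = 0.68 by edgeR), under the size threshold of 0.5, and the adjusted p by DESeq2 was 0.019. It stayed between -0.47 and -0.31 as each library was left out. In cerebellum, Kcnab1 was at 174, 202 and 156 CPM in WT and 179, 181 and 159 CPM in Snx14-KO, with a log2 fold change of -0.02 (SE 0.10). The other members named for their small p in cortex had adjusted p values that rounded to 1.00 by edgeR. Of these, Kcnq5 was higher, at 115, 131 and 125 CPM in Snx14-KO against 93.4, 114 and 114 CPM in WT (log2 fold change 0.21, SE 0.09). Kcnip2, Kcnip3, Kcng1 and Kcnj14 had log2 fold changes of -0.20, -0.19, -0.27 and -0.45, and Kcnj8, the Kir6.1 subunit of vascular ATP-sensitive channels, of 0.43 at 2.15 to 4.03 CPM.

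**Figure D4:**
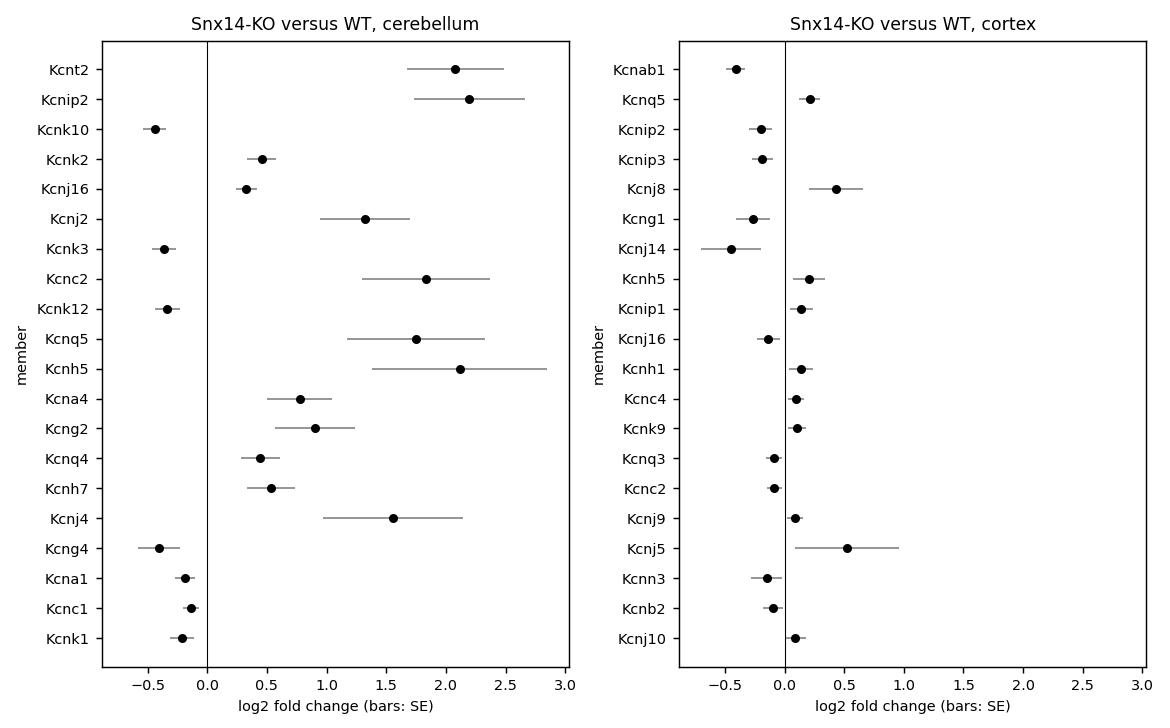
Log2 fold change of Snx14-KO over WT with SE bars for 20 members of small unadjusted p in cerebellum and in cortex (n = 3 mice a genotype and tissue). No member shown was called by edgeR; the largest cerebellar values, 2.20 for Kcnip2 and 2.08 for Kcnt2, have wide errors, and in cortex Kcnab1 (-0.41) has the smallest p.

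An interaction term, fitted to the 12 libraries together, asked whether Snx14 loss acted unequally in cerebellum and cortex. Of 77 members, 0 were called by edgeR, as were 0% of 19380 genes, and 19 had an unadjusted p under 0.05, against 5.68% of all genes. Kcnt2 came closest, with a difference of 2.12 between the log2 fold changes in cerebellum and cortex (SE 0.32, unadjusted p = 1.0e-05, adjusted p = 0.10 by edgeR and 4.3e-05 by DESeq2, the single member called by DESeq2, against 0.181% of all genes). In cortex Kcnt2 was at 49.1, 48.5 and 48.9 CPM in WT and 43.8, 45.1 and 52.0 CPM in Snx14-KO. Without the cerebellum of mice 1 and 3 the difference for Kcnt2 was 1.40. The next members were Kcnip2, with a difference of 2.40 (adjusted p = 0.18), Kcnk2 with 0.48 (0.40), Kcnc2 with 1.91 (0.50), Kcnj16 with 0.45 (0.52), Kcnv1 with 1.73 (0.52), Kcnj4 with 1.52 (0.52) and Kcnj2 with 1.43 (0.59). Without the cerebellum of mice 1 and 3 these differences were 0.88 for Kcnip2, 0.34 for Kcnk2, -0.26 for Kcnc2, 0.30 for Kcnj16, 0.86 for Kcnv1, 0.071 for Kcnj4 and 0.73 for Kcnj2. Without Snx14-KO mouse 2 in both tissues, 8 members were called, against 1.25% of all genes, and without the filter 9, against 1.12%. The 19 members with an unadjusted p under 0.05 became 24 of 78 without mouse 2, against 1655 of 19684 genes. They became 11 of 77 without Snx14-KO mouse 3, against 785 of 19798 genes.

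Mutations in Kcna1, Kcna2, Kcnc1, Kcnd3, Kcnma1 and Kcnn2 are linked to ataxia or tremor in humans or mice, and Snx14 loss also causes ataxia. None of these 6 was called between genotypes in either tissue. Kcnc1, the Kv3.1 subunit of granule cells, was at 376, 339 and 353 CPM in WT cerebellum and 319, 332 and 310 CPM in Snx14-KO, with no overlap and a log2 fold change of -0.14 (SE 0.07, adjusted p = 0.67). For Kcna1, Kcna2, Kcnd3 and Kcnma1 the cerebellar log2 fold changes were -0.19, -0.12, -0.05 and -0.13, and for Kcnn2 the value was 0.14, all with SE between 0.07 and 0.10. With Snx14-KO mice 1 and 3 left out, the decreases were larger for Kcna1 (-0.34) and Kcna2 (-0.28). They were smaller for Kcnc1 (-0.094), Kcnd3 (-0.0034) and Kcnma1 (-0.058), and the value for Kcnn2 was 0.17. Each of these rests on the lone Snx14-KO cerebellum library left. In cortex the 6 lay between -0.10 and -0.01. By region, Kcna1, Kcna2, Kcnc1 and Kcnd3 were called higher in WT cerebellum, at 1.53-fold, 1.47-fold, 1.81-fold and 1.61-fold, while Kcnma1 and Kcnn2 were not.

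Kcnj10, the astrocytic Kir4.1, was at 334, 327 and 363 CPM in WT cerebellum and 373, 323 and 369 CPM in Snx14-KO (log2 fold change 0.07, SE 0.08, adjusted p = 0.93). Its values in cortex were 261, 220 and 246 CPM in WT and 231, 279 and 262 CPM in Snx14-KO (log2 fold change 0.09, SE 0.09). The groups overlapped in both tissues, and the highest cortical value of Kcnj10 was that of Snx14-KO mouse 2, the cortex library with the highest Gfap level. In the cerebellum of Snx14-KO mice 1 and 3, Gfap was at 373 and 912 CPM and Kcnj10 at 373 and 369 CPM. A link between these genes was not tested.

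A list of 26 genes that act with these channels, such as Kv4 partner proteins, HCN channels, sodium pump subunits and chloride cotransporters, was read beside them. Between genotypes 0 of 24 tested in cerebellum and 0 of 25 in cortex were called. Dpp10, a Kv4 partner, stood apart in Snx14-KO mouse 2, at 28.5 CPM in cerebellum against 130 to 228 CPM in the other 5 libraries, and at 22.5 CPM in cortex against 127 to 262 CPM. Between regions of WT mice, 6 of 25 were higher in cerebellum and 4 lower, together 10 of 25 against 40.4% of all genes, a share near the background. Lrrc38, a BK channel γ subunit, was at 15.8, 20.02 and 17.6 CPM in cerebellum against 2.34, 3.01 and 2.68 CPM in cortex (log2 fold change 2.74), and Atp1b2, a β subunit of the sodium pump, was higher by a log2 fold change of 1.30. Lrrc55, another γ subunit, was at 7.22, 7.06 and 6.97 CPM against 33.7, 32.2 and 40.4 CPM (log2 fold change -2.31). Lgi1, a secreted Kv1-associated protein, had a log2 fold change of -1.60.

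With all libraries of a comparison in the fit, 13 of the 90 members had counts too low for the filter and were not tested. These were Kcna7, Kcna10, Kcne1, Kcne3, Kcnh8, Kcnj1, Kcnj15, Kcnk7, Kcnk15, Kcnk16, Kcnk18, Kcnmb3 and Kcnn4. Their highest count in a library ranged from 1 read pair for Kcnk16 to 19 for Kcnh8. Kcnk15, a leak channel relative of Kcnk3, had 13, 0 and 7 read pairs in the cerebellum of Snx14-KO mice 1, 2 and 3 and 3 over their cortex libraries, a ratio of 5.92 with an exact 95% counting interval from 1.76 to 31.1, and all 20 cerebellar read pairs came from mice 1 and 3. The remaining 77 members were tested in at least 1 comparison.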

How the data were processed

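RNA-seq was available for 12 libraries, 3 mice of each genotype, cerebellum and cortex. The authors deposited 1 table of read counts per library, made with featureCounts (Subread 2.0.1, per the labels) on GRCm38 with the GENCODE vM21 annotation. Per the file headers, read pairs were counted without strand and reads in overlapping genes were given to each of them, so 6 members that share at least 10% of their exon bases with another gene (among them Kcna6, Kcnj3, Kcnmb4, Kcnk4 and Kcnk2) may hold reads of both. Spike-in and numbered features in the tables were left out. Gene totals ranged from 16672589 to 19887427 read pairs, and at that depth 13 members fell under the filter on low counts.

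From the counts, edgeR 4.0.16 (R 4.3.3) fitted its quasi-likelihood test with TMM factors and filterByExpr within the libraries of each comparison, and with an interaction term over all 12. Benjamini-Hochberg adjustment ran over all genes tested. Calls needed an adjusted p below 0.05 together with a log2 fold change beyond 0.5 in either direction. Alternatives were DESeq2 1.42.0, another scaling, no filter, no size threshold, a replicate block, members free of exon overlap, and each library left out, and, added after seeing the data, leaving out the cerebellum of Snx14-KO mice 1 and 3. The scripts were tested on simulated counts. Replicates differed by more than counting noise. Mouse numbers in the titles were taken to tie the tissues of 1 animal, and deviations of the tied libraries correlated by 0.10, 0.11 and 0.08 in WT and 0.30, 0.02 and 0.08 in Snx14-KO. Nothing stated that mice came from separate litters, so p-values measure the spread between these mice.

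Named members were Kcnt2, Kcnab1 and Kcnj10, ataxia genes, the 8 of smallest p in each genotype comparison, and the outermost called and most abundant per class. A few members that this rule names are counted but not reported here one by one. Others named are examples chosen after their values were seen. Members and lists were chosen with earlier results of these data known.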

Additional observations from a re-analysis of the deposited data

How the results depend on the processing

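The regional calls changed little: 59 to 67 members in WT and 52 to 65 in Snx14-KO over all settings tried, the lowest from leaving out members that share exon bases and the highest from dropping the size threshold. In cortex, 0 members were called under each setting tried, and the median of -0.036 moved to between -0.032 and 0.0057 as each library was left out. The cerebellar count of 0 became 3 with DESeq2 and 6 without the filter on low counts, and ranged from 0 to 5 with 1 library left out, the 5 being without Snx14-KO mouse 2. The count of 0 for the tissue difference became 1 with DESeq2 and 9 without the filter, and ranged from 0 to 8, the 8 again being without Snx14-KO mouse 2. The cause of the higher counts without the filter was not tested. Without the cerebellum of Snx14-KO mice 1 and 3 both counts were 0, which shows no stability, since 1 Snx14-KO cerebellum library was left and the spread came from the other groups. Of the members named between genotypes, the log2 fold change then turned to -0.66 for Kcnh5, -0.052 for Kcnh7, -0.34 for Kcnc2, 0.040 for Kcnab1 and -0.076 for Kcnj10 in cerebellum, to -0.87 for Kcnh5, -0.092 for Kcnh7, -0.26 for Kcnc2 and 0.0081 for Kcnma1 in the tissue difference, and to 0.038 for Kcnma1 between the Snx14-KO regions.

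With 1 library left out, values near 0 turned sign. These were Kcnab1 in cerebellum (-0.10 to 0.078), and in cortex Kcna1 (-0.18 to 0.052), Kcna2 (-0.053 to 0.058), Kcnc1 (-0.054 to 0.032), Kcnd3 (-0.22 to 0.016) and Kcnn2 (-0.14 to 0.070). In the tissue difference they were Kcnj10 (-0.15 to 0.084), Kcna1 (-0.34 to 0.050), Kcnd3 (-0.11 to 0.16) and Kcnma1 (-0.16 to 0.076), and by region Kcnma1 in WT (-0.034 to 0.076) and in Snx14-KO (-0.099 to 0.047).

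A replicate block by mouse number called 0 members in cerebellum, 0 in cortex, 0 in the tissue difference, 63 between WT regions and 56 between Snx14-KO regions, so it changed no count. Between genotypes the mice share a number only, and deviations of same-numbered libraries correlated by 0.08, 0.03 and -0.01 in cerebellum and by 0.11, -0.04 and 0.06 in cortex. Depth limits the members at a few read pairs, Kcnt2 in cerebellum among them.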
